A study of Mus musculus with 6 samples.

Results

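The 45 genes described here encode the Wnt ligands, their receptors and the intracellular and nuclear proteins that carry the Wnt signal, out of 19938 genes measured in immortalized neural precursor-like cells of the mouse. They were taken by gene symbol alone: every Wnt and Frizzled (Fzd) gene, the receptors Lrp5, Lrp6, Ror1, Ror2 and Ryk, the Dishevelled genes Dvl1 to Dvl3, the destruction complex and feedback genes Apc, Axin1, Axin2 and Nkd1, and the nuclear effectors Ctnnb1, Tcf7l1, Tcf7l2 and Lef1. Tcf7 was in the same rule but is not analysed here, because no row of the table carried it as its single symbol. The genes fall into 5 classes: 19 ligands, 10 Frizzled receptors, 5 co-receptors and alternative receptors, 7 Dishevelled, destruction complex and feedback genes, and 4 genes for beta-catenin and TCF/LEF factors.

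The knock-out cells were homozygous for a deletion of Lgi1, and the wild-type cells carried it intact. Lgi1 encodes a secreted neuronal protein whose loss causes epilepsy. Both genotypes were C57BL/6J cells from the brains of embryos at day 13.5, immortalized and then kept in RPMI medium with 1% serum, and RNA of each was hybridised to 3 Affymetrix Mouse Gene 1.0 ST arrays. The replicates are labelled as biological, but the count of embryos or lines and the means of immortalization are not stated. The spread that the p-values rest on may therefore be technical, and a genotype cannot be told apart from the cell line that represents it.

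Wnt proteins are secreted lipid-modified ligands that bind Frizzled receptors. With the co-receptors Lrp5 and Lrp6 they stop the destruction complex of Axin, Apc and kinases from degrading beta-catenin, which then enters the nucleus and activates genes with TCF/LEF factors. Other branches run through Ror and Ryk receptors and set cell polarity and movement. In the embryonic brain, Wnt signals pattern the dorsal midline and the midbrain-hindbrain boundary, and they regulate the division of neural precursors.

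Several facts about the samples bear on every value below. All values are the deposited signals on a log2 scale, so a difference of 1 is a 2-fold difference. Array medians lay between 6.36 and 6.41, and Pearson's r over all probe sets was 0.968 to 0.971 across the genotypes and 0.993 to 0.995 within them. A level under 5.68, the 95th percentile of 1194 olfactory and vomeronasal receptor genes, is called background here. Lgi1 lay under it on every array, at 4.53, 4.57 and 4.54 in knock-out cells and 4.61, 4.75 and 4.94 in wild-type cells, so its signal does not check the labels. Xist, the X-inactivation transcript, averaged 12.44 in knock-out and 4.64 in wild-type cells, while the Y-linked Eif2s3y, Uty and Kdm5d averaged 4.67 to 5.24 in knock-out and 9.03 to 10.19 in wild-type cells. By these transcripts the knock-out cells were female in type and the wild-type cells male. Effects of sex on other genes cannot be told apart from those of the deletion. Among genes above the median signal, the median log2 fold change was 0.41 on chromosome 14, where 88.3% of 341 genes had a positive value, and −0.25 on chromosome 19.

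The cell type markers also separated the genotypes. Of 18 measured neural progenitor markers 3 rose and 6 fell in knock-out cells, and Sox2, a transcription factor that defines neural precursors, averaged 5.35 in knock-out cells, under background, and 11.26 in wild-type cells. Fabp7, a lipid-binding protein of radial glia, averaged 5.91 in knock-out and 9.12 in wild-type cells, and Nes, the intermediate filament nestin, 8.72 in knock-out and 10.73 in wild-type cells. Sox9, a transcription factor of neural stem cells and of cartilage, went the other way, with 10.61 in knock-out and 8.05 in wild-type cells. Of 22 fibroblast and meningeal markers 18 rose and none fell, and the log2 of their summed signal was 14.88 to 14.96 on knock-out arrays and 12.87 to 13.09 on wild-type arrays. In that list Postn and Col1a2, which encode matrix proteins, averaged 12.12 and 12.15 in knock-out cells and 6.36 and 6.85 in wild-type cells, while Aldh1a2 and Tcf21 were under background in both genotypes. Of 10 endothelial markers 3 rose and 1 fell, with a log2 summed signal of 10.53 to 10.68 in knock-out and 8.37 to 8.49 in wild-type cells, and the defining genes Cdh5 and Pecam1 were under background in both. The endothelial transcription factor Erg averaged 9.97 in knock-out and 5.37 in wild-type cells, and the receptor Tek averaged 8.21 in knock-out and 5.07 in wild-type cells. Of 13 neuron markers 1 rose (Map2, at 10.95 in knock-out and 10.05 in wild-type cells) and 2 fell (Syt1, at 5.50 in knock-out and 6.42 in wild-type cells, and Gap43, at 5.06 in knock-out and 5.57 in wild-type cells), and 10 were under background in both genotypes. Of 8 microglia and leukocyte markers none was called, and 7 were under background in both. Of 7 astrocyte markers 1 rose and 1 fell, of 7 oligodendrocyte lineage markers 1 rose and 1 fell, and of 7 neural crest markers 1 rose and 2 fell. The part of these markers in the Wnt results was not tested, and in a bulk sample fewer cells of a type and less RNA per cell cannot be told apart.

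A gene is said to have risen or fallen, or to be called, when its Benjamini-Hochberg adjusted p from limma, over all 19938 genes, was under 0.05. Of the 45 Wnt genes 21 changed (46.7%), against 31.6% of all genes. Of them 13 rose (28.9%), against 14.0% of all genes, and 8 fell (17.8%), against 17.6% of all genes. At least a 2-fold rise was seen for 7 (15.6%: Fzd4, Nkd1, Wnt2b, Fzd1, Lrp6, Tcf7l2 and Fzd8), against 3.05% of all genes, and no Wnt gene fell by 2-fold or more, against 2.27% of all genes. The arrays of the genotypes did not overlap for 24 of the 45 (53.3%; 14 with knock-out arrays above and 10 below), against 42.3% of all genes. The median log2 fold change was 0.02 for the 45 and −0.01 for all genes, and the median absolute log2 fold change was 0.22 for the 45 and 0.11 for all genes. The median of the 45 turned to −0.03 when each array was centred on its own median. Both genotypes were under background for 13 of the 45 and for 8285 of all genes.

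**Figure D1:**
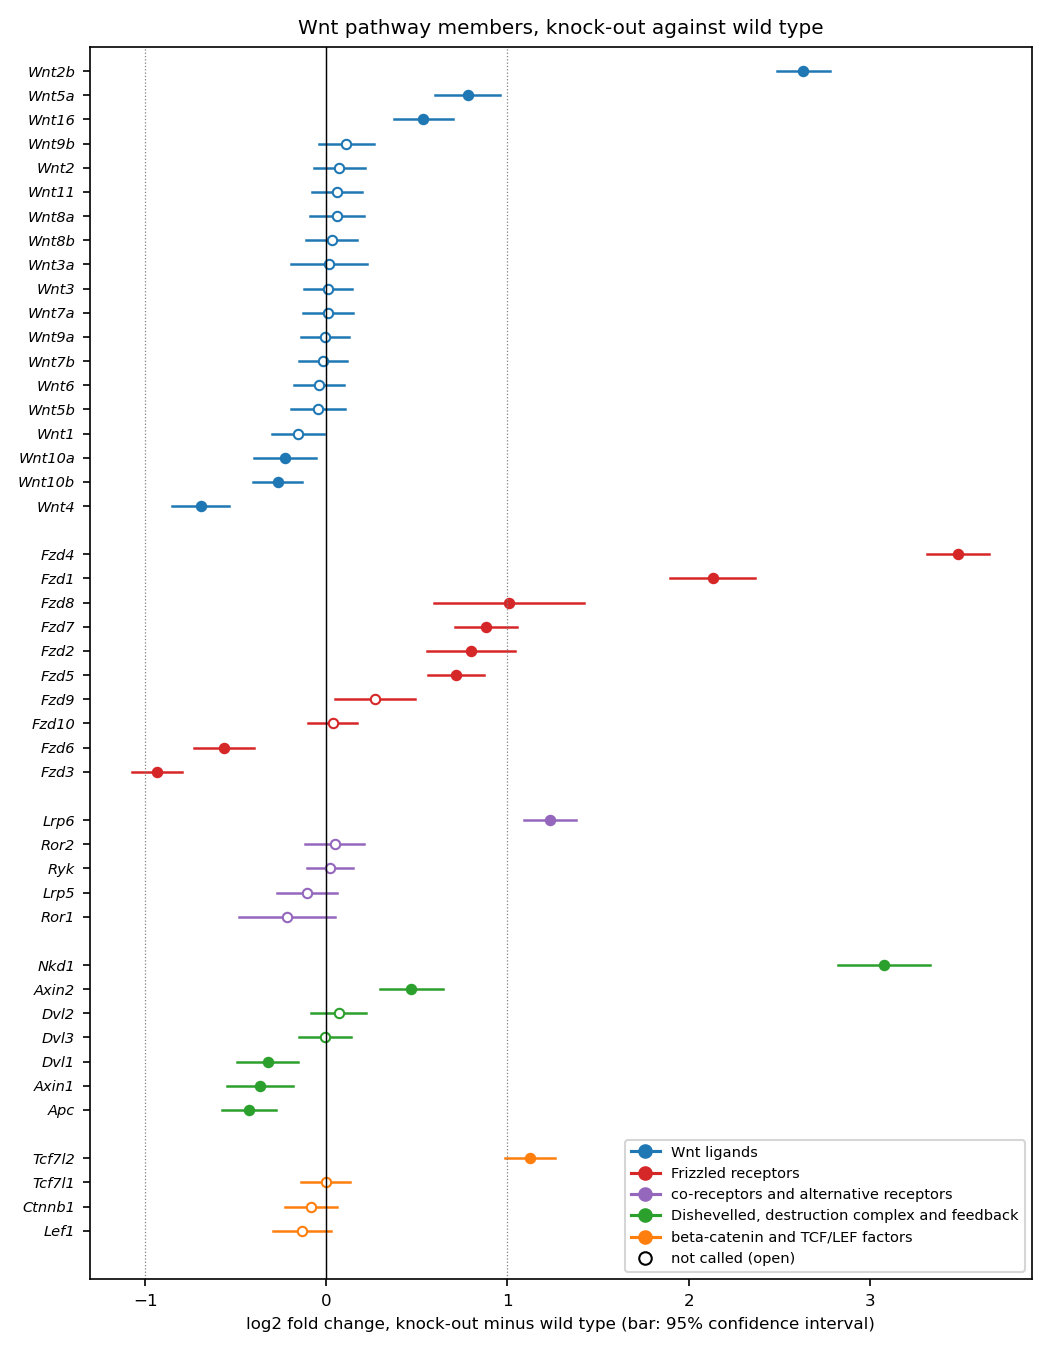
Log2 fold change of each of the 45 Wnt genes, knock-out minus wild type (horizontal axis), with its 95% confidence interval from limma (3 arrays per genotype), grouped and coloured by class, filled where the gene was called and open where not. Fzd4, Nkd1, Wnt2b and Fzd1 lie beyond 2 on the log2 scale, no gene lies below −1, and 13 of the 19 ligands are open.

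Among the 19 ligands, the data show a large rise of Wnt2b, smaller rises of Wnt5a and Wnt16, a fall of Wnt4 and small falls of Wnt10a and Wnt10b. In all 6 ligands changed (31.6%), 3 up and 3 down, the same share as among all genes, and the median log2 fold change was 0.01. For 11 of the 19 both genotypes were under background, and none of these was called.

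Wnt2b, a ligand expressed at the dorsal midline and roof of the embryonic brain, was on probe set 10500938. Its log2 signal was 8.19, 8.08 and 8.08 on the knock-out arrays and 5.56, 5.43 and 5.46 on the wild-type arrays. The wild-type arrays were all under background and the knock-out arrays all above it, with no overlap. The means were 8.12 ± 0.066 in knock-out and 5.48 ± 0.066 in wild-type cells (SD, n = 3 each), a log2 fold change of 2.63 (SE 0.07, 95% confidence interval 2.49 to 2.78, limma adjusted p = 7.22e-10). Set against the background level in place of the wild-type mean, the signal was at least 5.42-fold higher in knock-out cells. The RefSeq promoter of Wnt2b is shown because it is the ligand with the largest change: 250 bases before to 50 after the transcript start, chr3:104961660-104961959 on the minus strand of GRCm38.p6, 79.7% G and C. Capitals mark matches to the GC box (GGGCGG or CCGCCC, the site of Sp1-type factors) and the CCAAT box (CCAAT or ATTGG), here 4 and 1.
Wnt2b: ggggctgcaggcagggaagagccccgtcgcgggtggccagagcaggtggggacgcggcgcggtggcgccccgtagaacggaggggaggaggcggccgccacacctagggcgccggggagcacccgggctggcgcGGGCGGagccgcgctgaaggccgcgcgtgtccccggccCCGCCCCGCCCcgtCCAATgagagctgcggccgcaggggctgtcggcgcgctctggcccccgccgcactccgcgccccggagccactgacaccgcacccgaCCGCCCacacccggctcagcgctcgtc

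Wnt5a, a ligand of the polarity branch that signals through Ror2, had log2 signals of 7.61, 7.85 and 7.74 in knock-out cells and 6.84, 6.99 and 7.04 in wild-type cells. Every knock-out array was above every wild-type array, and the log2 fold change was 0.78 (SE 0.08, limma adjusted p = 3.76e-05). Wnt5a lies on chromosome 14, and with the median signal of each chromosome subtracted its log2 fold change was 0.26 (limma adjusted p = 0.0323). That median was taken on each array over the chromosome's genes above the median signal. The shift it makes need not equal the median log2 fold change of the chromosome. Over all alternatives the adjusted p of Wnt5a ran from 1.54e-05 to 0.0323. Wnt16, a ligand studied in bone, had 6.09, 6.15 and 6.14 in knock-out cells and 5.62, 5.70 and 5.46 in wild-type cells, and rose by 0.54 on the log2 scale (SE 0.07, limma adjusted p = 0.000256). The wild-type values of Wnt16 straddled the background level and the knock-out values were all above it.

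Wnt4, a ligand required for kidney and female reproductive tract development, was the ligand with the largest fall. It had 6.31, 6.32 and 6.38 in knock-out cells and 7.09, 7.10 and 6.90 in wild-type cells, all above background and without overlap. Its log2 fold change was −0.69 (SE 0.07, 95% confidence interval −0.85 to −0.54, limma adjusted p = 3.36e-05). Another probe set of Wnt4 averaged 5.76 in knock-out and 6.28 in wild-type cells, a log2 fold change of −0.52 (adjusted p = 0.000452) in the same direction.

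The falls of the closely related ligands Wnt10b and Wnt10a were small and close to background. Wnt10b had 5.51, 5.49 and 5.44 in knock-out cells and 5.70, 5.77 and 5.78 in wild-type cells, a log2 fold change of −0.27 (limma adjusted p = 0.00586). All knock-out values of Wnt10b were under background and all wild-type values just above it, so against the background level its signal was at least 1.05-fold lower in knock-out cells. Wnt10a had 5.86, 5.60 and 5.69 in knock-out cells and 5.97, 5.91 and 5.95 in wild-type cells, a log2 fold change of −0.23 (limma adjusted p = 0.044). Its call did not hold without knock-out replicate 2 or 3 or without any of the wild-type replicates, each left out in turn (adjusted p = 0.0748 to 0.163). With all 6 arrays the call was also lost in a robust limma fit with an intensity trend (adjusted p = 0.0649). The same held without moderation of the variances (adjusted p = 0.138). The adjusted p of Wnt10a spanned 0.00198 to 0.163 over all alternatives.

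The other 13 ligands did not pass the test, with log2 fold changes between −0.16 and 0.11. Wnt1, which marks the midbrain-hindbrain boundary, had 4.39, 4.34 and 4.29 in knock-out cells and 4.56, 4.499 and 4.43 in wild-type cells. These did not overlap but were all under background, and the log2 fold change of −0.16 had an adjusted p of 0.0946. With array medians subtracted it was −0.20 (adjusted p = 0.0294), and over all alternatives the adjusted p of Wnt1 ran from 0.00265 to 0.266. Wnt3a, which acts at the cortical hem, averaged 5.32 in knock-out and 5.31 in wild-type cells, and Wnt7a, a ligand of the embryonic forebrain, averaged 4.65 in knock-out and 4.64 in wild-type cells. Wnt7b, which acts with Wnt7a on brain vessels, averaged 4.99 in knock-out and 5.01 in wild-type cells. Wnt2, Wnt3, Wnt6, Wnt8a, Wnt8b, Wnt9a and Wnt11 were likewise under background in both genotypes. Wnt5b, a close relative of Wnt5a, was measurable, with 6.51, 6.42 and 6.43 in knock-out cells and 6.43, 6.48 and 6.59 in wild-type cells. Its arrays overlapped, and the 95% confidence interval of its log2 fold change of −0.05 was −0.19 to 0.10. Wnt9b lay close to background, at 5.87 in knock-out and 5.76 in wild-type cells, with a log2 fold change of 0.11 (95% confidence interval −0.04 to 0.26).

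Of the 10 Frizzled receptors 8 changed (80.0%, against 31.6% of all genes), with 6 up (60.0%, against 14.0%) and 2 down, and their median log2 fold change was 0.76. The rises ran from 0.72 for Fzd5 to 3.49 for Fzd4 on the log2 scale, and the falls were −0.56 for Fzd6 and −0.93 for Fzd3. Knock-out and wild-type arrays did not overlap for 9 of the 10 (90.0%, against 42.3% of all genes), all but Fzd10.

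Fzd4 is a receptor for Wnts and for Norrin, and it is known for its role in retinal blood vessels. Its log2 signal was 9.87, 9.82 and 9.80 in knock-out cells and 6.19, 6.45 and 6.39 in wild-type cells (probe set 10554808). All 6 arrays were above background and the genotypes were far apart. The means were 9.83 ± 0.037 in knock-out and 6.34 ± 0.14 in wild-type cells (SD, n = 3 each), a log2 fold change of 3.49 (SE 0.08, 95% confidence interval 3.32 to 3.66, limma adjusted p = 3e-10), or an 11.2-fold higher signal in knock-out cells. Fzd1, which acts redundantly with Fzd2 and Fzd7 in mouse heart and palate formation, had 10.64, 10.80 and 10.69 in knock-out cells and 8.34, 8.61 and 8.78 in wild-type cells (probe set 10527936). Its log2 fold change was 2.13 (SE 0.10, 95% confidence interval 1.90 to 2.36, limma adjusted p = 1.08e-07), a 4.38-fold higher signal in knock-out cells with no overlap.

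The promoters of the 2 receptors with the largest rises are shown for comparison, each from 250 bases before to 50 after the RefSeq start in GRCm38.p6, with capitals as for Wnt2b. That of Fzd4 (chr7:89404116-89404415, plus strand, 72.7% G and C) held 8 GC boxes and 1 CCAAT box. That of Fzd1 (chr5:4758167-4758466, minus strand, 54.0% G and C) held neither.
Fzd4: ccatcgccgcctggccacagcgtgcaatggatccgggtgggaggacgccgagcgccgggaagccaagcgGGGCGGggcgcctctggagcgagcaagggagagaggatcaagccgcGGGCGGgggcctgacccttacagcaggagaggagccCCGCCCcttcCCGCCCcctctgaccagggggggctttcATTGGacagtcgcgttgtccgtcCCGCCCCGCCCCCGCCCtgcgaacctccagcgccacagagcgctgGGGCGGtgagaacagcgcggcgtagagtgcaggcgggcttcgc
Fzd1: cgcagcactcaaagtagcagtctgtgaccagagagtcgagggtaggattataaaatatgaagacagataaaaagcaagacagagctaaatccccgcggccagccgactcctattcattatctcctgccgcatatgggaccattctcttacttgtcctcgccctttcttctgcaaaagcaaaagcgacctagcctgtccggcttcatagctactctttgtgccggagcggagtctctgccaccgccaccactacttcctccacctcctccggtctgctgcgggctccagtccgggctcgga

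The relatives of Fzd1 rose with smaller fold changes. Fzd7 had 9.85, 9.80 and 9.74 in knock-out cells and 8.81, 8.88 and 9.06 in wild-type cells, a log2 fold change of 0.88 (SE 0.08, limma adjusted p = 1e-05). Fzd2 had 10.30, 10.44 and 10.54 in knock-out cells and 9.58, 9.43 and 9.87 in wild-type cells, a log2 fold change of 0.80 (SE 0.11, limma adjusted p = 0.00027). For both, the lowest knock-out array was above the highest wild-type array.

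Fzd5 and Fzd8, close relatives that act in eye and forebrain development, rose as well. Fzd5 had 6.80, 7.005 and 6.91 in knock-out cells and 6.18, 6.16 and 6.23 in wild-type cells, a log2 fold change of 0.72 (SE 0.07, limma adjusted p = 2.16e-05). Fzd8 had 9.07, 9.33 and 9.17 in knock-out cells and 7.65, 8.47 and 8.42 in wild-type cells, a log2 fold change of 1.01 (SE 0.19, 95% confidence interval 0.59 to 1.42, limma adjusted p = 0.00191). Its wild-type replicate 1 lay well under the other wild-type arrays, and with a pooled SD of 0.338 Fzd8 was the most variable of the 45 genes, whose median pooled SD was 0.0742 against 0.0865 for all genes. The 2.01-fold rise of Fzd8 was the smallest of the 7 rises of 2-fold or more, and without that array its log2 fold change was 0.74 (adjusted p = 0.00018), under 2-fold. Without moderation of the variances the call of Fzd8 did not hold (adjusted p = 0.0797; 0.000171 to 0.0797 over all alternatives).

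Fzd3 and Fzd6, a related pair known for axon guidance, neural tube closure and hair orientation through planar polarity, were the only Frizzled genes to fall. Fzd3 had 7.04, 7.09 and 7.07 in knock-out cells and 8.05, 8.02 and 7.93 in wild-type cells, a log2 fold change of −0.93 (SE 0.06, 95% confidence interval −1.07 to −0.80, limma adjusted p = 1.12e-06). It lies on chromosome 14, like Wnt5a, where most genes had positive values, and its log2 fold change was −1.45 with chromosome medians subtracted (adjusted p = 1.97e-08). Fzd6 had 9.16, 9.28 and 9.36 in knock-out cells and 9.85, 9.73 and 9.91 in wild-type cells, a log2 fold change of −0.56 (SE 0.07, limma adjusted p = 0.000211). The genotypes did not overlap for either gene.

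By these sequence-related groups, all 3 of Fzd1, Fzd2 and Fzd7 and both of Fzd5 and Fzd8 rose, both of Fzd3 and Fzd6 fell, and 1 of Fzd4, Fzd9 and Fzd10 rose. Fzd9 had 5.74, 6.16 and 5.85 in knock-out cells and 5.67, 5.65 and 5.62 in wild-type cells. The knock-out arrays were above the wild-type arrays, all of which were under background, but the log2 fold change of 0.27 did not pass (limma adjusted p = 0.068). A fit blocked on the replicate number called it (adjusted p = 0.0386), as it did without knock-out replicate 1 (log2 fold change 0.36, adjusted p = 0.0218), and the adjusted p of Fzd9 spanned 0.00759 to 0.242 over all alternatives. Fzd10 was under background, at 4.78 in knock-out and 4.74 in wild-type cells.

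**Figure D2:**
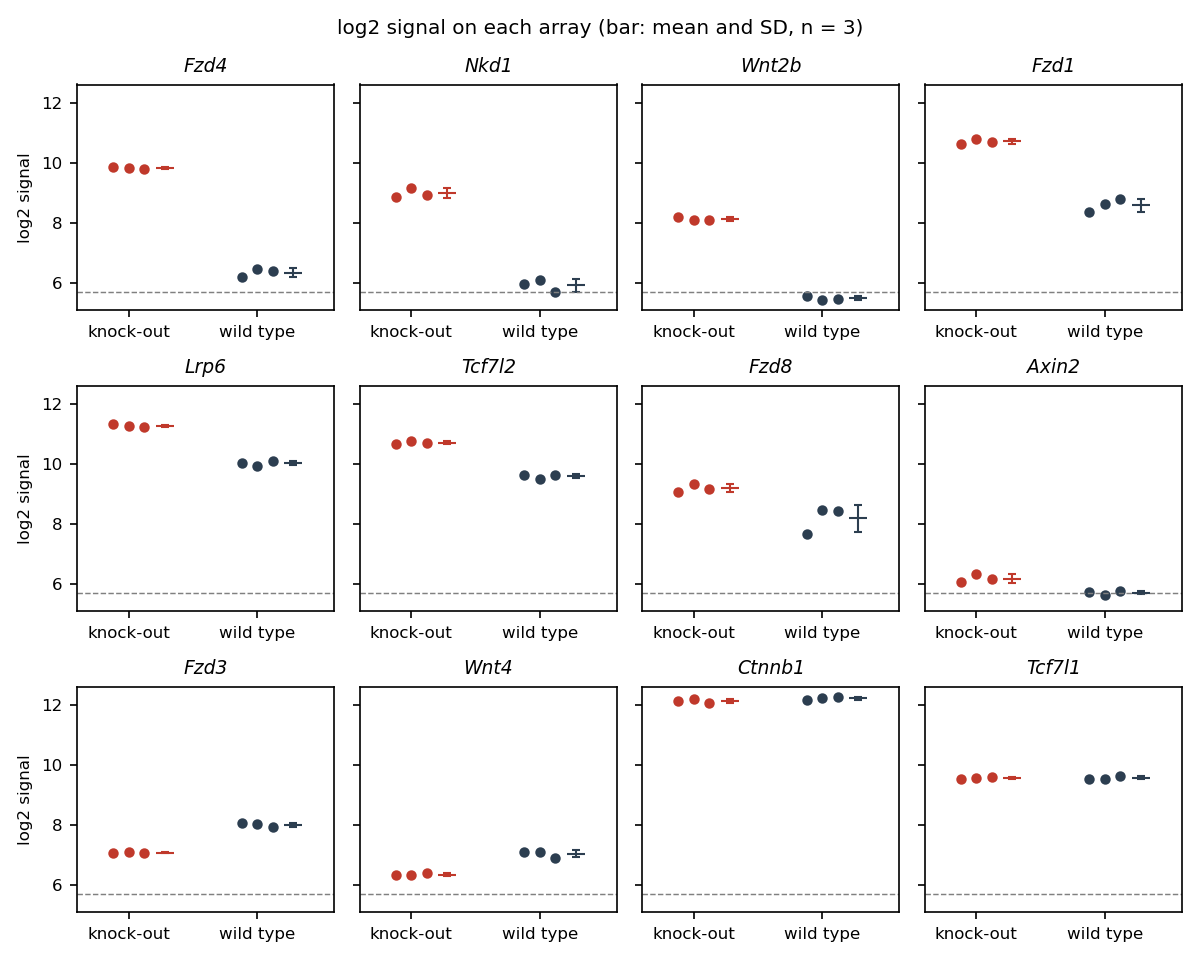
Log2 signal (vertical axis) of 12 Wnt genes on each of the 6 arrays, knock-out on the left and wild type on the right of each panel, with the mean and SD of the 3 arrays as bars and the background level of 5.68 as a dashed line. The wild-type arrays of Wnt2b lie under the line, wild-type replicate 1 of Fzd8 lies under the other wild-type arrays, and the points of Ctnnb1 and Tcf7l1 overlap between genotypes.

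Of the 5 co-receptors and alternative receptors 1 changed, Lrp6, against 31.6% of all genes. With so few genes, the count does not show that this class changed less often than others, and the difference was not tested. Lrp6, which with a Frizzled receptor forms the complex that recruits Axin, had 11.31, 11.24 and 11.22 in knock-out cells and 10.03, 9.94 and 10.10 in wild-type cells (probe set 10548701). Its log2 fold change was 1.23 (SE 0.07, 95% confidence interval 1.09 to 1.38, limma adjusted p = 2.08e-07), a 2.35-fold higher signal in knock-out cells with no overlap. Its close relative Lrp5 did not pass, with 8.85, 8.98 and 8.92 in knock-out cells and 9.08, 8.89 and 9.11 in wild-type cells. The arrays of Lrp5 overlapped, and the 95% confidence interval of its log2 fold change of −0.11 was −0.27 to 0.06.

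The alternative receptors Ryk, Ror2 and Ror1 did not pass. Ryk, a receptor with an inactive kinase domain, had 11.26, 11.27 and 11.29 in knock-out cells and 11.22, 11.29 and 11.24 in wild-type cells, with a 95% confidence interval of −0.11 to 0.15 around a log2 fold change of 0.02. With chromosome medians subtracted Ryk was called at 0.22 (adjusted p = 0.0202). Ror2, the receptor through which Wnt5a acts, averaged 8.07 ± 0.070 in knock-out and 8.02 ± 0.11 in wild-type cells (SD, n = 3 each), a log2 fold change of 0.05 (95% confidence interval −0.12 to 0.21). Its relative Ror1 had 7.24, 7.64 and 7.47 in knock-out cells and 7.49, 7.64 and 7.88 in wild-type cells. These overlapped, and the interval of its log2 fold change of −0.22 was −0.48 to 0.05.

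In the class of Dishevelled, destruction complex and feedback genes 5 of 7 changed (71.4%, against 31.6% of all genes). Nkd1 and Axin2 rose, and Apc, Axin1 and Dvl1 fell by a small amount. Nkd1 binds Dishevelled and dampens the signal, and it is itself induced by Wnt signalling in several tissues. It had 8.86, 9.17 and 8.93 in knock-out cells and 5.96, 6.09 and 5.68 in wild-type cells (probe set 10573779). The highest wild-type array was far under the lowest knock-out array. The means were 8.99 ± 0.16 in knock-out and 5.91 ± 0.21 in wild-type cells (SD, n = 3 each), a log2 fold change of 3.08 (SE 0.11, 95% confidence interval 2.83 to 3.33, limma adjusted p = 1.2e-08), or an 8.45-fold higher signal in knock-out cells. Axin2, a scaffold of the destruction complex and a widely used readout of beta-catenin signalling, had 6.05, 6.32 and 6.15 in knock-out cells and 5.74, 5.64 and 5.75 in wild-type cells. Its knock-out arrays were all above background and its wild-type arrays lay around it, and the log2 fold change was 0.47 (SE 0.08, 95% confidence interval 0.29 to 0.64, limma adjusted p = 0.00102), a 1.38-fold higher signal.

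The promoters of these feedback genes are shown because both are described as targets of TCF/LEF factors; capitals and window are as above. That of Nkd1 (chr8:88527383-88527682, plus strand of GRCm38.p6, 58.3% G and C) held no GC box and 1 CCAAT box, and that of Axin2 (chr11:108920099-108920398, plus strand, 70.0% G and C) held 2 GC boxes and 1 CCAAT box. The TCF/LEF core, searched as CTTTGAT or ATCAAAG, was in neither window, and it was in only 3.73% of all promoters. Sites outside the windows were not searched, so its absence does not show whether these genes have TCF/LEF sites.
Nkd1: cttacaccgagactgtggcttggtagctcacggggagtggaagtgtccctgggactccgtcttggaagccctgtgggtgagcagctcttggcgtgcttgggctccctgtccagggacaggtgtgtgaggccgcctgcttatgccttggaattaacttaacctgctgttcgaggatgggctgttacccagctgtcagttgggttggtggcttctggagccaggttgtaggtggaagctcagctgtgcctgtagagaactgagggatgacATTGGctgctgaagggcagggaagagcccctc
Axin2: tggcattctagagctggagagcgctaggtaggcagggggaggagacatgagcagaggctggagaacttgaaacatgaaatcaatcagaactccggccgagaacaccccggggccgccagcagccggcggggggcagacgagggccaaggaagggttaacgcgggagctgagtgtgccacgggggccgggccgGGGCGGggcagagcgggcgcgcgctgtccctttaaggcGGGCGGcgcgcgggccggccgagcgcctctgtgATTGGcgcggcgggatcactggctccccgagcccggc

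Apc, the tumour suppressor that holds beta-catenin in the destruction complex, had 9.93, 9.98 and 9.84 in knock-out cells and 10.39, 10.37 and 10.26 in wild-type cells, a log2 fold change of −0.43 (SE 0.07, limma adjusted p = 0.000656). Axin1, the constitutive Axin scaffold, had 8.79, 8.82 and 8.85 in knock-out cells and 9.15, 9.35 and 9.04 in wild-type cells, a log2 fold change of −0.37 (SE 0.08, limma adjusted p = 0.00581). Dvl1, a cytoplasmic relay that binds Frizzled, had 8.77, 8.53 and 8.58 in knock-out cells and 8.98, 8.90 and 8.97 in wild-type cells, a log2 fold change of −0.32 (SE 0.08, limma adjusted p = 0.00754). For each of Apc, Axin1 and Dvl1 the knock-out arrays were all under the wild-type arrays. Without moderation of the variances the calls of Axin1 (adjusted p = 0.066; 0.00254 to 0.066 over all alternatives) and Dvl1 (adjusted p = 0.0618; 0.00247 to 0.0618) did not hold.

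The other Dishevelled genes did not pass. Dvl2 averaged 8.73 ± 0.090 in knock-out and 8.66 ± 0.060 in wild-type cells (SD, n = 3 each), with a 95% confidence interval of −0.08 to 0.22 around a log2 fold change of 0.07. Dvl3 had 10.74, 10.68 and 10.59 in knock-out cells and 10.69, 10.72 and 10.63 in wild-type cells, with an interval of −0.15 to 0.14 around −0.01. The arrays of the genotypes overlapped for both.

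Of the 4 nuclear effectors 1 changed, Tcf7l2, against 31.6% of all genes, and this difference was likewise not tested. Tcf7l2, a TCF factor that binds DNA and recruits beta-catenin, had 10.67, 10.75 and 10.69 in knock-out cells and 9.61, 9.51 and 9.62 in wild-type cells (probe set 10464084). The genotypes did not overlap, and the log2 fold change was 1.12 (SE 0.06, 95% confidence interval 0.99 to 1.26, limma adjusted p = 2.86e-07), a 2.18-fold higher signal in knock-out cells. Tcf7l2 lies on chromosome 19, and with chromosome medians subtracted its log2 fold change was 1.43. Its upstream RefSeq promoter (chr19:55741560-55741859, plus strand of GRCm38.p6, 70.0% G and C) is shown as that of the one nuclear effector that changed, and it held 6 GC boxes and no CCAAT box, while the downstream promoter held neither.
Tcf7l2: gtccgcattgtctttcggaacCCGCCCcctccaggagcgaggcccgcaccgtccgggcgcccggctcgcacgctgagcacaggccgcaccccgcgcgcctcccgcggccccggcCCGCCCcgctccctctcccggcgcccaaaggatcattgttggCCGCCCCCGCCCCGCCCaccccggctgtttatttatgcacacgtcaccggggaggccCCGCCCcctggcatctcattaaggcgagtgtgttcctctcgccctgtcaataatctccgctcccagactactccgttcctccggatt

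Ctnnb1, which encodes beta-catenin, had 12.12, 12.20 and 12.06 in knock-out cells and 12.15, 12.23 and 12.25 in wild-type cells. These overlapped, and the 95% confidence interval of its log2 fold change of −0.08 was −0.23 to 0.06. The arrays measure RNA, so the level and location of beta-catenin protein, through which the pathway acts, were not measured. Tcf7l1, a TCF factor that mostly represses, had 9.53, 9.56 and 9.60 in knock-out cells and 9.54, 9.53 and 9.62 in wild-type cells, with an interval of −0.14 to 0.13 around a log2 fold change of −0.00. Lef1 had 5.04, 5.04 and 4.89 in knock-out cells and 5.21, 5.05 and 5.11 in wild-type cells, under background in both genotypes, with a log2 fold change of −0.13 (limma adjusted p = 0.208).

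The set of RefSeq promoters used here held 41 for 33 of the 45 genes. It held none for the other 12, so the counts below do not cover them. Among these were the called genes Lrp6, Fzd8, Fzd2, Fzd3, Fzd6, Wnt5a, Wnt10a, Apc and Axin1. A GC box was in 33 of the 41, against 35.7% of all 32851 promoters of the table, and a CCAAT box was in 13 of the 41, against 37.4%. The TCF/LEF core was in 2 of the 41, those of Wnt5b and Wnt11, against 3.73%. Both strands were searched, and matches of different motifs overlapped in none of the 41 windows, while GC boxes that overlap each other were counted separately. Neither Wnt5b nor Wnt11 passed the test, and of the genes whose promoters are printed none held this core.

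**Figure D3:**
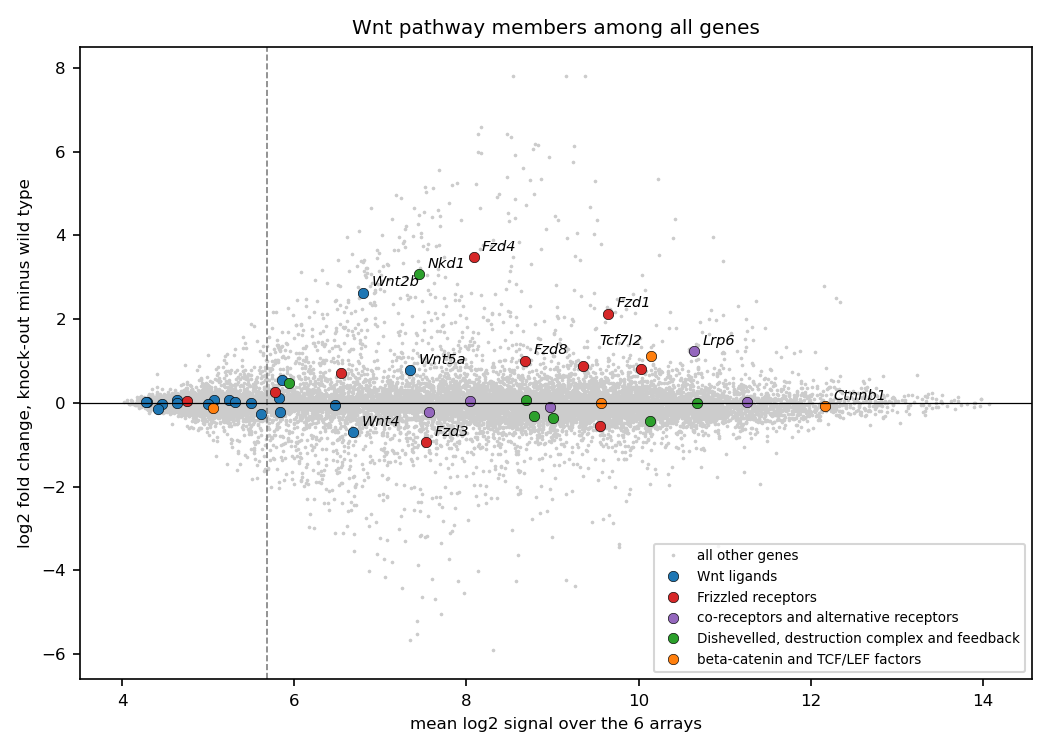
Log2 fold change, knock-out minus wild type (vertical axis), against the mean log2 signal over the 6 arrays (horizontal axis) for all 19938 genes in grey and the 45 Wnt genes in colour by class, with the background level of 5.68 as a dashed line. Wnt ligands crowd left of the line near 0, and Fzd4, Nkd1, Wnt2b and Fzd1 lie above most genes of similar signal.

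Other genes of the pathway were described in lists by role. Counts in these lists and the marker lists above are to be read beside 31.6% of all genes changed, 14.0% up and 17.6% down. Differences from those shares were not tested. The median log2 fold change was 0.08 for Wnt secretion, 0.21 for the R-spondin system, 0.09 for secreted and membrane inhibitors, −0.16 for the destruction complex and beta-catenin turnover, −0.07 for TCF and beta-catenin cofactors and −0.10 for planar cell polarity, against −0.01 for all genes. Among 6 Wnt secretion genes Wls, the carrier that takes Wnts to the cell surface, rose (12.13 in knock-out and 11.77 in wild-type cells), and Porcn, the X-linked enzyme that adds their lipid, fell (7.46 in knock-out and 8.38 in wild-type cells). Of 9 genes of the R-spondin system, secreted amplifiers of Wnt signalling and their receptors, 4 rose and 1 fell. Rspo2 averaged 11.16 in knock-out and 5.18 in wild-type cells, Lgr5 10.09 in knock-out and 4.94 in wild-type cells, and Rspo3 10.87 in knock-out and 5.88 in wild-type cells. With the wild-type values of Rspo2 and Lgr5 under background, their signals were at least 44.6-fold and at least 21.3-fold higher in knock-out cells. Rspo1 fell, at 5.62 in knock-out and 6.86 in wild-type cells.

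Of 17 Wnt inhibitors, secreted or in the membrane, 5 rose and 2 fell in knock-out cells, and 9 were under background in both genotypes. Sfrp2, a secreted protein with a Frizzled-like domain that binds Wnts, averaged 13.28 ± 0.062 in knock-out and 5.47 ± 0.032 in wild-type cells (SD, n = 3 each), and was at least 195-fold higher in knock-out cells against the background level. Its relative Sfrp1 averaged 9.81 in knock-out and 5.58 in wild-type cells, and Dkk3, of the Dickkopf family, 10.08 in knock-out and 6.94 in wild-type cells. Apcdd1, a membrane inhibitor of the pathway, fell, at 7.54 in knock-out and 9.12 in wild-type cells. Dkk1, the best known blocker of Lrp6, was under background in both genotypes.

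Inside the cell, 4 of 20 other genes of the destruction complex and beta-catenin turnover rose and 8 fell. Dact1, which binds Dishevelled, averaged 8.67 in knock-out and 5.39 in wild-type cells, and Nkd2, the relative of Nkd1, 6.97 in knock-out and 5.23 in wild-type cells. Amer1, an X-linked scaffold of the destruction complex, averaged 8.16 in knock-out and 8.63 in wild-type cells, and Dact3 5.90 in knock-out and 5.47 in wild-type cells. Of 16 measured TCF and beta-catenin cofactors 4 rose and 4 fell. The Groucho-type corepressors Tle1 and Tle2 rose (8.24 and 7.04 in knock-out cells, 6.95 and 6.28 in wild-type cells) and Tle3 fell (9.93 in knock-out and 10.71 in wild-type cells). Pygo1, a coactivator, rose, at 6.98 in knock-out and 6.03 in wild-type cells.

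Of 18 planar cell polarity genes, the branch that Fzd3 and Fzd6 serve, 2 rose and 5 fell. Prickle1 averaged 7.09 in knock-out and 5.33 in wild-type cells, while the cadherin Celsr2 averaged 5.49 in knock-out and 6.60 in wild-type cells. Vangl1, a membrane partner of Prickle proteins, averaged 8.90 in knock-out and 9.48 in wild-type cells, and Daam1, which links Dishevelled to actin, 8.38 in knock-out and 9.10 in wild-type cells.

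Genes described as beta-catenin targets moved in both directions. Of 31 measured of 35 listed, 7 rose and 10 fell, 12 were under background in both genotypes, and the median log2 fold change was 0.00. Besides Lgr5 and Nkd1, which are given above, the largest called changes were those of En2 and En1, transcription factors of the midbrain-hindbrain boundary. En2 averaged 5.18 in knock-out and 10.23 in wild-type cells, and En1 averaged 5.29 in knock-out and 9.99 in wild-type cells, both under background on every knock-out array. Of this list 3 genes, Axin2, Nkd1 and Lef1, are among the 45.

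**Figure D4:**
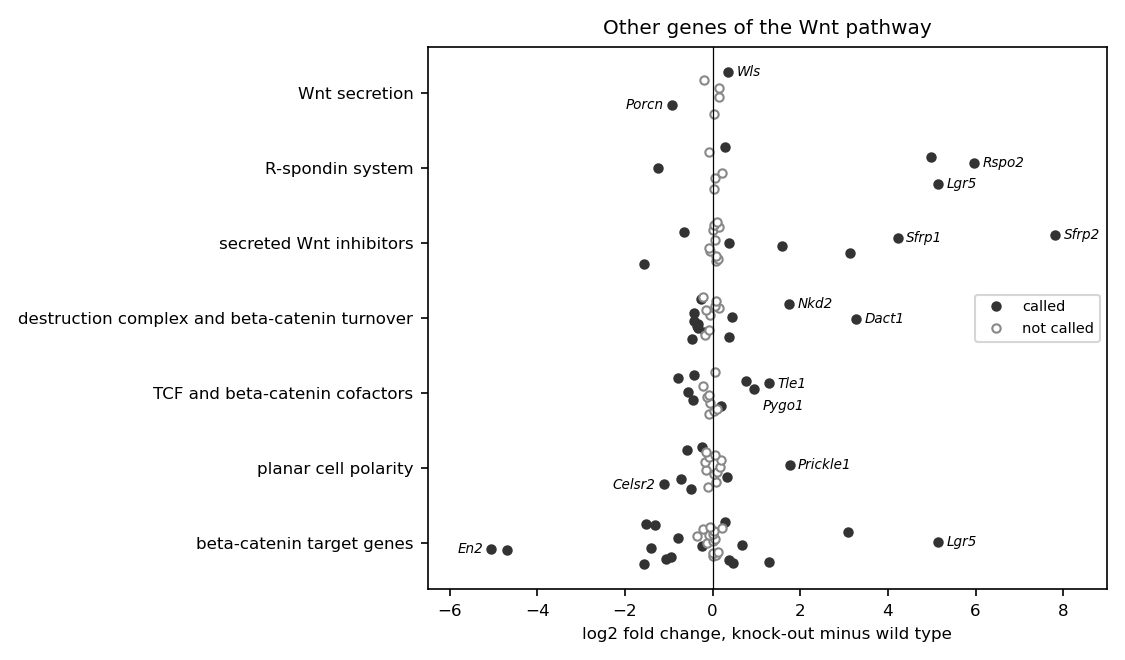
Log2 fold change, knock-out minus wild type (horizontal axis), of the genes in 7 lists of the Wnt pathway beyond or overlapping the 45, 1 row per list and 1 point per gene, filled where called and open where not; vertical offsets within a row only separate the points. Rspo2, Lgr5, Sfrp2 and Sfrp1 lie far to the right, En2 and En1 far to the left.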

How the data were processed

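RNA of 3 knock-out and 3 wild-type samples was measured by 1-colour hybridisation to Affymetrix Mouse Gene 1.0 ST arrays. Per the labels' protocols, biotinylated cDNA was made from 250 ng of Trizol-extracted RNA. The deposited table holds 1 log2 signal per probe set and array, a scale judged from its range. The submitters' processing notes name Partek without a version. How the authors corrected background, normalized and summarized these log2 values is not given in the sources used, and no further scaling was applied. The number of arrays limits the precision.

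Of 35556 probe sets, 21789 had 1 gene symbol in the platform annotation, 1621 had several and 12146 had none. A gene with several probe sets was represented by that of highest mean signal, leaving 19938 genes. Symbols and chromosomes were checked against RefSeq (GRCm38.p6), which 21698 probe sets matched. Its promoter table supplied the sequences. The genotypes were compared by limma 3.58.1 under R 4.3.3, with lmFit and eBayes, two-sided and with 4 residual degrees of freedom. The p-values were adjusted by Benjamini-Hochberg over all genes, and the procedure was tested on simulated data. Of all genes, 7720 had an unadjusted p under 0.05.

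The 45 genes, the gene lists, the background level and the tests were chosen with earlier results of these data known. Every one of the 45 genes is accounted for, with all array values where it changed by 2-fold or more or was the brightest of its class, and in each other pathway list up to 4 called genes with the largest change are named. Of the marker lists, fewer are named. The titles give both genotypes replicate numbers 1 to 3. Residuals of same-numbered arrays correlated at 0.187 to 0.288 across genes and those of other pairs at −0.185 to −0.00466. The same-numbered arrays thus passed a threshold of 0.1 set for pairing, and a fit with the number as a block was run as an alternative. The residuals of a genotype cancel over its 3 arrays, so positive values for some pairs force negative ones for others, and pairing is not established. The p-values given come from the fit without a block unless stated. A fit with the number as a block stands beside any result whose call it changes. Other alternatives were other normalizations, filters, probe set rules and variance models, each array left out in turn, and a stricter threshold.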

Additional observations from a re-analysis of the deposited data

How the results depend on the processing

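Of the 45 genes, 35 kept their side of the threshold and their direction under each of the 17 alternative settings in which they were tested. Among 738 alternative values, 10 lost a call, 10 gained one and none reversed a called direction. Of the 21 called genes, 17 kept the call throughout, and the exceptions were Wnt10a, Axin1, Dvl1 and Fzd8. The number of genes that changed among the 45 was 21, and 17 to 27 over the settings (20 to 22 with 1 array left out). The number that rose was 13, and 11 to 16 over the settings (13 to 14 with 1 array left out). The number that fell was 8, and 5 to 11 over the settings (7 to 8 with 1 array left out). The count of 5 came without moderation of the variances, a setting with fewer degrees of freedom per gene. Of all genes 6296 changed, and 4451 to 7848 over the settings, with 5485 to 5803 when 1 array was left out. At an adjusted p under 0.01, 4582 of all genes and 20 of the 45 passed. With the replicate number as a block 7000 of all genes changed, 6279 of them among the 6296, and 22 of the 45. The block gave Fzd9 its call (adjusted p = 0.0386) and changed no other call among the 45. Subtracting chromosome medians, chosen after seeing the data, gave the highest counts. It added calls for Fzd9 (log2 fold change 0.41), Ryk (0.22), Wnt1 (−0.34), Wnt6 (−0.21), Wnt7b (−0.20) and Wnt8b (0.33). Of these Wnt1, Wnt6, Wnt7b and Wnt8b were under background in both genotypes, with −0.16, −0.04, −0.02 and 0.03 before the subtraction. The subtracted medians came from genes above the median signal, so these added calls need not reflect a change of the genes themselves. It also took Wnt10a to −0.40 and Wnt10b to −0.45. The median of all genes was −0.01 as deposited and −0.06 with array medians subtracted. The log2 fold change of Fzd8 was 0.74 to 1.15 with 1 array left out. A filter at the 25th percentile of mean signal left 38 of the 45 genes, of which 21 changed. Among all genes that passed this filter 6250 changed. A filter at the median left 25 of the 45, of which 17 changed, and among all genes that passed it 5337 changed. In the main fit, the called share of genes above the median signal ran from 37.3% on chromosome 8 to 77.4% on chromosome 14. For genes with high signal, 31.6% is therefore a low share to compare with. The share of 31.6% used above counts all genes, with 8285 of them under background in both genotypes. Both genotypes were under background for 11 of the 19 ligands, so fold changes of these rest on signals near the floor of the arrays.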

Other observations

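Several Wnt ligand genes are neighbours on a chromosome, in 4 pairs by the order of genes in GRCm38.p6. Wnt10b and Wnt1 on chromosome 15 had log2 fold changes of −0.27 and −0.16, of which only that of Wnt10b passed. Wnt6 and Wnt10a on chromosome 1 had −0.04 and −0.23, of which only that of Wnt10a passed. Wnt3a and Wnt9a on chromosome 11 had 0.01 and −0.01, and Wnt9b and Wnt3 on the same chromosome had 0.11 and 0.01, none of which passed. Differences within the pairs were not tested.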
